A study of Mus musculus with 8 samples.

Results

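The interferon regulatory factors (*Irf* genes) were described in bulk RNA-seq libraries of mouse CD8+ T cells. The 8 members, *Irf1*, *Irf2*, *Irf3*, *Irf4*, *Irf5*, *Irf7*, *Irf8* and *Irf9*, were taken by symbol from the 22520 rows of the deposited table, and all 8 were among the 10666 genes that passed the filter on low values (1 FPKM in at least 4 libraries). They were chosen with their values in these same libraries known, so the differences of the members between the groups are given as a description, with standard errors and without a test. The lists of related genes below were also chosen with earlier results of these data known. Their counts and p-values are therefore descriptions too.

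CD8+ T cells purified from the spleens of wild-type mice by negative selection were kept under anti-CD3, anti-CD28 and IL-2 for 6 days, a stimulation that does not stop and that the study used as a culture model of T cell exhaustion. From day 3, the cells of 4 libraries received 40 µM DADA (diisopropylamine dichloroacetate, an inhibitor of pyruvate dehydrogenase kinase) and those of the other 4 received the same volume of its solvent DMSO. Both groups thus share the stimulation, the IL-2 and the cell source, and no unstimulated cells were analysed here. The labels place the words control and model under genotype, yet the groups differ by treatment, and no deletion or transgene is involved. The methods list male C57BL/6J mice of 6 to 8 weeks among those bought, without tying a strain, age or sex to these libraries. The labels name 4 biological replicates per group without saying whether these came from separate mice, so p-values measure only the spread between these libraries.

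The values are FPKM, fragments scaled to transcript length and to how many fragments of a library were mapped. Levels of different genes can therefore be compared per length. The table holds no counts. From the steps between its lowest values, 13750000 to 16250000 fragments per library were estimated with DMSO and 15230000 to 18930000 with DADA. Fold changes below are differences of log2(FPKM + 1), DADA minus DMSO, which understate the change of genes with low FPKM. Across the 10666 genes tested, limma with Benjamini-Hochberg adjustment called 7064 genes at an adjusted p under 0.05, which is 66.2% of the genes tested; 30.9% were higher and 35.3% lower with DADA. In 60.6% of the genes tested the values of the groups did not overlap, and the median log2 fold change of all genes tested was -0.02. The T cell markers were high in every library (*Cd8a* lay between 124 and 162 FPKM). Of the markers of other cells, 6 of 7 for B cells, 7 of 8 for myeloid cells, 7 of 8 for dendritic cells, 3 of 5 for NK cells, 3 of 4 for CD4 T cells and 6 of 6 for erythroid cells stayed below 1 FPKM in all 8 libraries. Those above were *Cd79b*, *Cd68*, *Zbtb46*, *Zbtb7b* (14.8 to 16.7 FPKM) and the NK markers *Klre1* and *Eomes*. *Klre1* lay between 1.76 and 2.47 FPKM, and *Eomes*, also expressed by CD8+ T cells, between 9.96 and 14.1 FPKM. *Pax5* and *Blnk* of B cells, *Csf1r* and *Adgre1* of macrophages and *Clec9a* of dendritic cells were listed at 0 in every library. RNA from fewer cells and less RNA per cell cannot be told apart in such libraries.

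Interferon regulatory factors are transcription factors with a shared DNA-binding domain that reads GAAA repeats. IRF3 and IRF7 are phosphorylated downstream of nucleic-acid sensors and switch on type I interferon genes. IRF9 joins STAT2 in the complex ISGF3, which carries the signal of the type I interferon receptor to interferon-stimulated genes, among them *Irf7* itself. IRF1 is induced by interferon gamma and activates antigen presentation genes, and IRF2 can compete with it for the same sites. IRF4 and IRF8 bind DNA weakly alone and act with partners such as BATF and JUN proteins in T cells; IRF4 follows the strength of the T cell receptor signal. IRF5 is known mainly from macrophages and B cells.

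The sequences just upstream of the members' starts are shown because interferon and STAT signals reach these genes through short elements there. All 8 members were found in the RefSeq promoter set (build GRCm38.p6, which is not the build of the deposited values). In the 250 bases before each start, both strands were searched for the core of the interferon-stimulated response element (ISRE), which is GAAA, any 2 bases and GAAA again, and for TTCNNNGAA, the gamma-activated sequence (GAS) that STAT dimers bind. The ISRE letters occur in 2.98% of all 32851 promoter windows and the GAS letters in 7.02%. Counted by gene, with a match in any of its windows, the shares are 3.46% and 8.13% of 27025 genes. Among the members, *Irf1*, *Irf2* and *Irf8* held a GAS match and *Irf2* also an ISRE match. Capitals mark the matches in the following stretches, each on the strand of its gene. *Irf1* has 1 GAS match, on chromosome 11 (+ strand), chr11:53769904-53769952:
Irf1: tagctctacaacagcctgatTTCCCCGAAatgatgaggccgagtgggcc
*Irf8* has 2 GAS matches, on chromosome 8 (+ strand), chr8:120736167-120736233:
Irf8: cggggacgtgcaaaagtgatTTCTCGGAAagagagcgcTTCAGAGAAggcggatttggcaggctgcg
*Irf2* has an ISRE match followed by a GAS match that does not overlap it, on chromosome 8 (+ strand), chr8:46739495-46739549:
Irf2: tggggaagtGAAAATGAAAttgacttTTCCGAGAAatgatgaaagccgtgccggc
Counted from the base before the start, the matches begin at base 90 in *Irf1*, at bases 171 and 153 in *Irf8*, and at bases 241 and 224 in *Irf2*. For *Irf7* and *Irf9*, the members with the largest differences between the groups, the last 100 bases before the start are shown. Neither these stretches nor the rest of their 250 bases hold either pattern. The stretch of *Irf7* is on chromosome 7 (- strand), chr7:141266425-141266524, and that of *Irf9* on chromosome 14 (+ strand), chr14:55603885-55603984:
Irf7: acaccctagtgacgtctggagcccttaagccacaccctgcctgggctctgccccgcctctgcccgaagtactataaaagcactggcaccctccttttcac
Irf9: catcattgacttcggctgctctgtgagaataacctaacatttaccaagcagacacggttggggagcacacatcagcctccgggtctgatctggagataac
A match is a run of letters and does not show that a factor binds there, and the absence of a match says only that these letters are not in this window.

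All 8 members passed the test used for the call, beside 66.2% of all genes tested, 6 of them higher and 2 lower with DADA, and in all 8 the groups did not overlap, beside 60.6% of all genes tested. Since the members were chosen by this contrast, nothing is read from these counts. Their log2 fold changes ran from -0.18 to 3.83, with a median of 0.69. Replicate libraries lay close together: the coefficient of variation of a member within a group was between 1.31% (*Irf4* with DADA) and 7.92% (*Irf7* with DMSO).

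**Figure D1:**
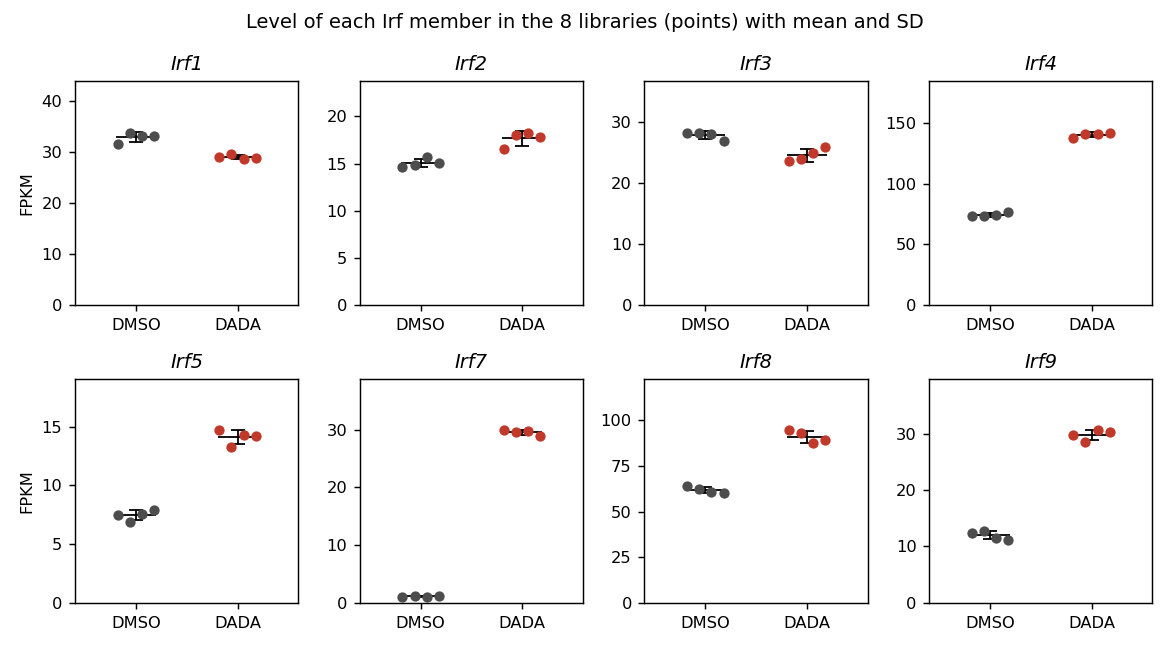
Level of each of the 8 *Irf* members in FPKM (vertical axis, from 0, scaled per gene) in the DMSO and DADA libraries. Points are libraries, 4 per group, with the mean as a bar and the SD as whiskers; the groups do not overlap in any panel, with *Irf1* and *Irf3* lower and the other 6 members higher with DADA.

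*Irf7*, the factor that amplifies type I interferon production, differed most. The 4 DMSO libraries held 1.09, 1.27, 1.07 and 1.18 FPKM, whereas the 4 DADA libraries held 29.9, 29.6, 29.7 and 28.9 FPKM. It was thus near the filter limit in every DMSO library and at a moderate, even level in every DADA library. The group means were 1.15 ± 0.0913 and 29.5 ± 0.433 FPKM (SD, n = 4 each), a ratio of 25.6 between the means, and the log2 fold change was 3.83 (SE 0.0416). Of the 10666 genes tested, 3 had a larger log2 fold change than *Irf7*, a rank that belongs to the pseudocount of 1. The lowest *Irf7* value rests on an estimated 47.6 fragments, if all come from its longest annotated transcript of 3240 bases; shorter transcripts would give fewer. With a pseudocount of 0.1 in place of 1, its log2 fold change was 4.56. The rank was then lower, with *Oasl1* (5.63), *Isg15* (5.50), *Usp18* (5.41) and *Ifit1* (5.13) among the genes above *Irf7*.

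*Irf3*, which shares its kinases with *Irf7* and is made in most cells without induction, went the other way by a small amount. Its values were 28.3, 28.3, 28.1 and 27.0 FPKM with DMSO and 23.6, 23.9, 24.9 and 26.1 FPKM with DADA. The highest DADA library lay only 0.96 FPKM below the lowest DMSO library. The log2 fold change was -0.18 (SE 0.0351). Within a library, the ratio of *Irf7* to *Irf3* was 0.0413 ± 0.00348 with DMSO and 1.20 ± 0.0679 with DADA (SD, n = 4 each), so *Irf7* went from a small fraction of the *Irf3* level to above it.

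*Irf9*, the DNA-binding subunit of ISGF3, was the other member whose log2 fold change exceeded 1. It was at 12.4, 12.8, 11.6 and 11.2 FPKM with DMSO and at 29.8, 28.6, 30.5 and 30.3 FPKM with DADA. Every DADA library was more than 15 FPKM above the highest DMSO library. The means were 11.98 ± 0.742 and 29.8 ± 0.883 FPKM (SD, n = 4 each), and the log2 fold change was 1.25 (SE 0.0438). *Irf9* moved almost in step with *Stat2*, its partner in ISGF3: the ratio of *Irf9* to *Stat2* was 1.01 ± 0.0713 with DMSO and 0.918 ± 0.0233 with DADA, and these ratios overlapped between the groups.

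*Irf4*, induced by the T cell receptor, was the most abundant member in all 8 libraries. It stood at 73.2, 73.4, 74.3 and 76.3 FPKM with DMSO and at 138, 140.4, 141 and 142 FPKM with DADA. The means were 74.3 ± 1.41 and 140.2 ± 1.84 FPKM (SD, n = 4 each), and the log2 fold change was 0.91 (SE 0.0217). Among the members its increase in FPKM was the largest, although its log2 fold change ranked below those of *Irf7* and *Irf9*.

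*Irf8*, the closest relative of *Irf4*, was the second most abundant member in all libraries, at 64.0, 62.5, 60.5 and 60.2 FPKM with DMSO and at 94.4, 93.2, 87.3 and 88.9 FPKM with DADA. On the log2 scale it differed by 0.55 (SE 0.0319). The ratio of *Irf4* to *Irf8* was 1.20 ± 0.0547 with DMSO and 1.54 ± 0.0741 with DADA (SD, n = 4 each), without overlap. *Irf8* is also a marker of dendritic cells and B cells. The summed level of the 8 dendritic cell markers was 3.79 to 4.69 FPKM with DMSO and 1.89 to 2.48 FPKM with DADA, of which *Zbtb46* gave nearly all. *Xcr1* and *Flt3*, also dendritic cell markers, were higher with DADA without overlap, at up to 0.131 and 0.0464 FPKM. The 7 B cell markers in the table summed to 2.59 to 3.56 FPKM and 2.36 to 3.09 FPKM, with *Cd79b* alone above 1 FPKM. The part of other cells in the *Irf8* difference was not tested.

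*Irf5* was at 7.52, 6.89, 7.58 and 7.90 FPKM with DMSO and at 14.7, 13.3, 14.3 and 14.2 FPKM with DADA. The lowest DADA library was 5.41 FPKM above the highest DMSO library, and the log2 fold change was 0.84 (SE 0.0468). *Irf5* is best known from myeloid cells, and the summed level of the 8 myeloid markers was also higher with DADA, at 5.24 to 5.93 FPKM against 3.53 to 3.99 FPKM with DMSO. Here *Cd68* gave most of the sum, with 3.43 to 3.90 FPKM in the DMSO group and 5.09 to 5.54 FPKM in the DADA group. *Mpeg1*, at up to 0.0624 and 0.215 FPKM, and *Itgam*, at up to 0.0173 and 0.0407 FPKM, were also higher with DADA without overlap, while *Csf1r* and *Adgre1* were listed at 0 and *Lyz2*, *Cd14* and *Fcgr1* overlapped between the groups. The part of other cells in the *Irf5* difference was not tested.

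*Irf1* and *Irf2*, often described as an activator and its competitor, moved in opposite directions by small amounts. *Irf1* was at 31.6, 33.8, 33.1 and 33.2 FPKM with DMSO and at 29.1, 29.6, 28.7 and 28.8 FPKM with DADA, where the log2 fold change was -0.18 (SE 0.0277). *Irf2* was at 14.6, 14.9, 15.7 and 15.0 FPKM with DMSO and at 16.5, 18.04, 18.3 and 17.9 FPKM with DADA, where the log2 fold change was 0.22 (SE 0.0388). The gap between the groups was 1.98 FPKM for *Irf1* and 0.811 FPKM for *Irf2*, the narrowest of the family. The ratio of *Irf1* to *Irf2* was 2.19 ± 0.0724 with DMSO and 1.65 ± 0.0803 with DADA (SD, n = 4 each). Both genes carry the GAS letters printed above, as does *Irf8*, and the log2 fold changes of the 3 were -0.18, 0.22 and 0.55.

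The order of the members by level differed between the groups. With DMSO it ran *Irf4*, *Irf8*, *Irf1*, *Irf3*, *Irf2*, *Irf9*, *Irf5* and *Irf7*, and no neighbours in this order overlapped. With DADA it ran *Irf4*, *Irf8*, *Irf9*, *Irf7*, *Irf1*, *Irf3*, *Irf2* and *Irf5*. There *Irf9*, *Irf7* and *Irf1*, with means of 29.8, 29.5 and 29.0 FPKM, could not be ordered, since the libraries of neighbours overlapped, while all other neighbours remained apart. *Irf7* thus moved from the last place to a level shared with *Irf9* and *Irf1*. Against all genes tested, the mean of *Irf7* with DMSO exceeded that of 4.01% of genes, and with DADA that of 74.5%.

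**Figure D2:**
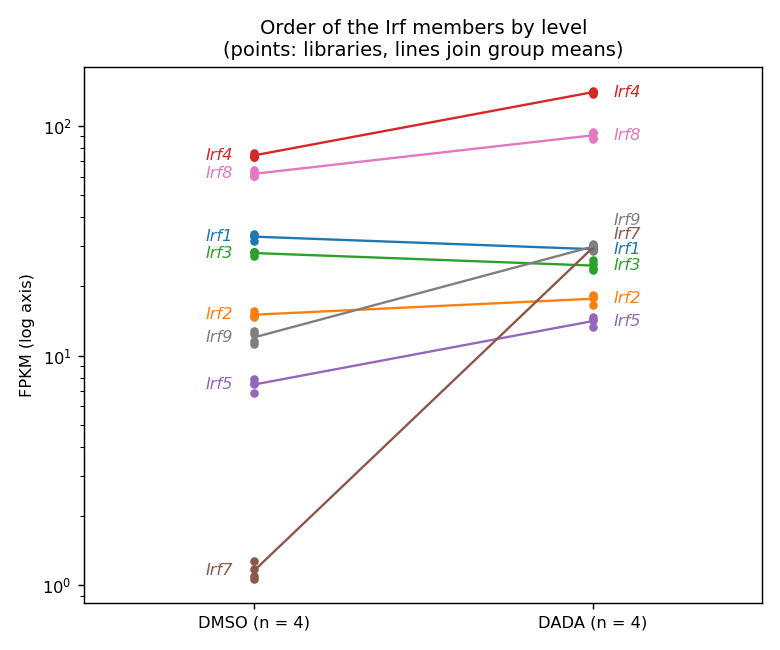
FPKM of the 8 *Irf* members on a log axis with DMSO (left) and DADA (right). Points are single libraries, 4 per group, and lines join the group means; *Irf7* rises from 1.15 to 29.5 FPKM and meets *Irf9* and *Irf1*, while *Irf4* and *Irf8* hold the top places on both sides.

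Summed over the 8 members, the level was 232.6 ± 0.836 FPKM with DMSO and 375.9 ± 0.992 FPKM with DADA (SD, n = 4 each), a ratio of 1.62. *Irf4* and *Irf8* made up most of this sum in both groups. The share of *Irf4* was 31.9% with DMSO and 37.3% with DADA, and that of *Irf8* was 26.6% and 24.2%. *Irf7* rose from 0.496% to 7.85% of the sum and *Irf9* from 5.15% to 7.93%. The shares of *Irf1*, from 14.2% to 7.73%, and of *Irf3*, from 12.01% to 6.55%, were lower with DADA, more than their own levels were, because the sum was larger.

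**Figure D3:**
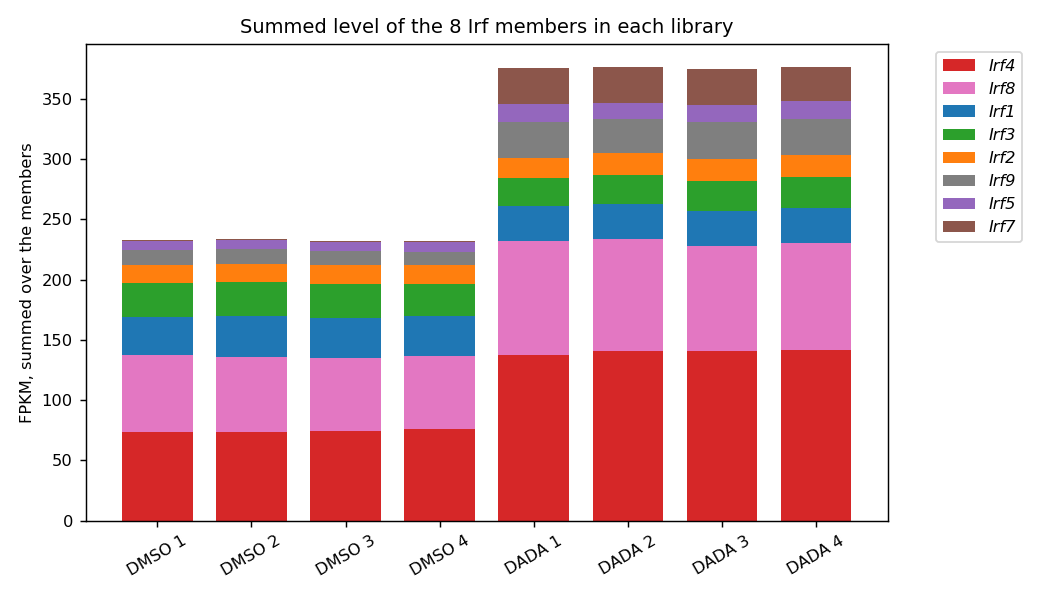
FPKM of the 8 *Irf* members stacked for each library, with the 4 DMSO libraries on the left and the 4 DADA libraries on the right. The stacks reach 232 to 234 FPKM with DMSO and 375 to 377 FPKM with DADA, and the *Irf7* segment, barely visible with DMSO, makes up 7.66% to 7.95% with DADA.

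Genes whose pattern over the 8 libraries was most like that of a member were sought among the 8180 other genes whose mean reached 5 FPKM, by the root-mean-square distance between log2(FPKM + 1) values centred on each gene's mean. With groups this far apart, the distance mostly reflects the size of the difference between them. Nearest to *Irf7* were *Mgarp* (distance 0.0776), *Oasl1* (0.0955) and *Ifit1* (0.108), of which *Oasl1* and *Ifit1* are interferon-stimulated genes. With DMSO means of 1.40, 0.298 and 0.398 FPKM, these genes reached 5 FPKM only through the DADA group. Their closeness holds for a pseudocount of 1. With 0.1, the log2 fold changes were 4.56 for *Irf7*, 5.63 for *Oasl1* and 5.13 for *Ifit1*. Nearest to *Irf4* were *Il2ra* (0.0145), which encodes the alpha chain of the IL-2 receptor, *Nampt* (0.0242) and *Scd2* (0.0261). *Il2ra* was at 293 and 549 FPKM in the group means, against 74.3 and 140.2 FPKM of *Irf4*. Nearest to *Irf8* were *Notch1* (0.0239), *Itpkb* (0.0311) and *Selplg* (0.034), to *Irf9* *Chd7* (0.0485), *Dennd3* (0.0489) and *Fam162a* (0.0535), and to *Irf5* *Ifi47* (0.0393), an interferon-inducible GTPase, *Khnyn* (0.0427) and *Npepps* (0.0502). For *Irf1*, *Irf2* and *Irf3*, whose differences were small, the nearest genes (*Mtpap*, *Rtl8b* and *Mfsd6*) lay within 0.0156, 0.021 and 0.0214.

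Interferon genes, the classical products of IRF3 and IRF7, were near the floor except for *Ifng*. Of the 16 listed, 8 were at 0 in every library, and 14 stayed below 1 FPKM everywhere. *Ifnb1* had 0 FPKM in each DMSO library and 0.536, 0.412, 0.326 and 0.133 FPKM with DADA. *Ifna4* was listed at 0 with DMSO and at 0.421, 1.10, 0.803 and 0.842 FPKM with DADA, and *Ifna2* at 0 with DMSO and at 0.676, 0.867, 0.31 and 0.557 FPKM with DADA. These 3 genes were thus above 0 in every DADA library and in no DMSO library, at levels of around 1 FPKM or less. *Ifna1* was at 0.067 FPKM in DMSO replicate 1, at 0 in the other DMSO libraries and at 0.075 to 0.231 FPKM with DADA. *Ifnz* was above 0 in 3 DMSO libraries (up to 0.016 FPKM) and at 0.033 to 0.086 FPKM with DADA. The interferon alpha genes are near-identical single-exon copies, so the split of fragments between them is uncertain. *Ifng*, the type II interferon made by T cells, lay between 376 and 420 FPKM with DMSO and between 638 and 659 FPKM with DADA, a rise of 0.68 on the log2 scale (limma, adjusted p = 6.39e-08).

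Of the 9 listed partners and feedback regulators of ISGF3, 8 rose with DADA, none fell and *Pias1* did not pass, beside 30.9% higher among all genes tested. Without *Usp18*, which was below 1 FPKM in every DMSO library and passed the filter only through the DADA group, 7 of 8 rose, with a median log2 fold change of 0.51 beside -0.02 for all genes tested. *Stat2* was at 11.7, 11.9, 11.8 and 12.1 FPKM with DMSO and at 31.9, 32.1, 32.5 and 33.2 FPKM with DADA. It rose by 1.38 on the log2 scale (limma, adjusted p = 7.74e-11), close to the 1.25 of *Irf9*. *Stat3* rose by 1.12 on the log2 scale. *Usp18*, which removes ISG15 from proteins and blocks the type I receptor, was at 0.494 to 0.919 FPKM with DMSO and at 29.9 to 31.8 FPKM with DADA, which is 4.27 on the log2 scale. The JAK inhibitors *Socs3* and *Socs1* rose by 1.22 and 0.21 on the log2 scale.

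Of 8 tested receptor chains and kinases upstream of ISGF3, 3 rose, 2 fell and 3 did not pass, a share of calls near the 66.2% of all genes tested, and they went both ways. *Ifnar1*, a chain of the type I receptor, fell from between 40.6 and 42.0 FPKM to between 30.9 and 32.9 FPKM, which is -0.37 on the log2 scale (limma, adjusted p = 1.49e-06), while *Ifngr1* rose by 0.32. *Ifnar2* was at 22.1 to 24.02 and 20.8 to 23.9 FPKM (limma, adjusted p = 0.215), and it passed the test without DADA replicate 2, with a log2 fold change of -0.11. *Jak1* fell by 0.16, and *Jak2* and *Tyk2* rose by 0.12 and 0.19.

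Of 24 listed ISGF3 targets, 23 passed the filter on low values, but 11 of these were below 1 FPKM in every DMSO library and passed only through the DADA group, so that they had to be higher there. The other 12 were all called higher, beside 30.9% of all genes tested, with a median log2 fold change of 1.70. Without any filter, all 24 were called higher with DADA, beside 24.8% of the 16167 genes tested in that way, with a median log2 fold change of 2.14. That count and median include the 11 genes. *Isg15*, a ubiquitin-like modifier, went from between 2.74 and 3.45 FPKM to between 136 and 154 FPKM, a log2 fold change of 5.16. *Oasl1* had 3.97 and *Ifit1* 3.68, near the 3.83 of *Irf7*, and both were among the 11 genes. At the other end *Ifi35* had 0.81 and *Ifit2* 1.02. This order holds for a pseudocount of 1: with 0.1, *Oasl1* had 5.63 and *Isg15* 5.50, and *Oas2*, from a mean of 0.0256 to one of 1.303 FPKM, had 3.51 in place of 1.17. Of 20 tested targets of IRF1, 14 rose and 4 fell, beside 30.9% and 35.3% of all genes tested, with a median of 0.36; over the alternatives, 17 to 20 were called, with 20 when DMSO replicate 1 was left out. The GTPase gene *Irgm1* rose by 1.37, and *Tapbp*, of the peptide-loading complex, and *Gbp3* by 1.01 each. *Casp1* and *Cd274*, which encodes PD-L1, fell by 0.89 and 0.75, and *Il15ra* by 0.20. *Irf1* itself was lower with DADA, by 0.18. Many genes of this list answer to other interferon signals as well.

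Among the 19 tested sensors, adaptors and kinases that act on IRF3 and IRF7, 11 rose and 6 fell, beside 30.9% and 35.3% of all genes tested, or 10 and 6 of 18 without *Tlr7*, which passed the filter only through the DADA group. The cytosolic RNA sensors *Dhx58*, *Ifih1* and *Rigi* rose by 2.74, 1.88 and 1.57, and the nucleic-acid sensor *Zbp1* by 1.65; these genes are themselves interferon-stimulated. *Dhx58* went from between 1.88 and 2.14 FPKM to between 17.8 and 20.04 FPKM. *Tlr7*, an endosomal RNA sensor, was at 0.239 to 0.373 FPKM with DMSO and at 1.71 to 2.15 FPKM with DADA, which is 1.16 on the log2 scale, or 2.27 with a pseudocount of 0.1. The kinase *Tbk1* rose by 0.21 and the adaptor *Sting1* by 0.12, whereas the related kinase *Ikbke* fell by 0.40, *Chuk* by 0.29 and the adaptor *Mavs* by 0.22.

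All 12 tested partners and close regulators or targets of IRF4 and IRF8 passed the test, beside 66.2% of all genes tested, 10 higher and 2 lower. They were 11 after rescaling to equal totals or quantile normalization, with 10 higher and 1 lower, and 1 of the 10, *Prdm1*, passed the filter only through the DADA group. *Batf*, with which IRF4 binds composite sites in T cells, was at 26.6, 23.2, 23.9 and 23.8 FPKM with DMSO and at 33.5, 30.3, 29.2 and 31.1 FPKM with DADA, which is 0.34 on the log2 scale (limma, adjusted p = 0.000238). *Irf4* differed by more, so the ratio of *Irf4* to *Batf* was 3.06 ± 0.211 with DMSO and 4.53 ± 0.306 with DADA. *Jun* rose by 1.40, *Junb* by 0.87, *Jund* by 0.65, *Batf3* by 0.36 and *Nfatc1* by 0.37. *Prdm1*, which encodes BLIMP-1 and is a target of IRF4, was at 0.587 to 0.773 FPKM with DMSO and at 6.64 to 8.59 FPKM with DADA, which is 2.36 on the log2 scale. *Id3*, an inhibitor of E proteins, fell by 1.03. The Ikaros factors *Ikzf1* and *Ikzf3* rose by 0.24 each. Of the 10 cofactors and ubiquitin ligases of the family, 3 rose, 1 fell and 6 did not pass, with a median of 0.01. *Trim21*, a ligase for several members, rose by 0.71, the acetyltransferase *Ep300* by 0.37 and *Irf2bpl* by 0.28.

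**Figure D4:**
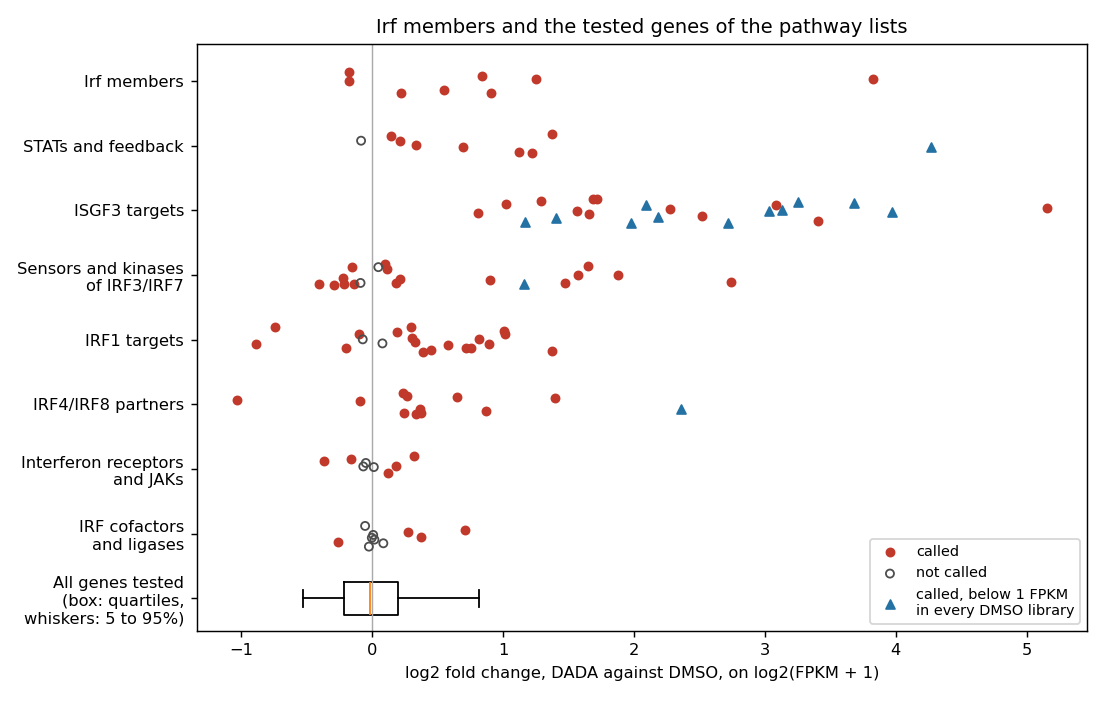
log2 fold changes (DADA against DMSO, on log2(FPKM + 1)) of the 8 *Irf* members and of the tested genes of 7 related lists, with all 10666 genes tested as a box. Red points were called, open points were not, and blue triangles are called genes below 1 FPKM in every DMSO library, which passed the filter only through the DADA group, 11 of them among the 23 ISGF3 targets; receptors and cofactors lie around 0.

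Genes next to the members were looked at because fragments of neighbouring genes can be counted together, and whether strand was used in the counting is not given in the sources used here. By the RefSeq table, *Irf1*, *Irf4* and *Irf8* have no gene within 5 kb. *Phrf1*, 431 bases from *Irf7*, was at 18.8 to 20.04 FPKM with DMSO and at 18.8 to 21.3 FPKM with DADA (limma, adjusted p = 0.410), with a log2 fold change of 0.04 beside the 3.83 of *Irf7*, and *Cdhr5*, 2580 bases from *Irf7*, did not exceed 0.0277 FPKM. *Rnf31*, 310 bases from *Irf9*, rose by 0.28 on the log2 scale (limma, adjusted p = 0.000569), less than the 1.25 of *Irf9*. *Tnpo3*, which overlaps the annotated span of *Irf5*, fell by 0.11 (limma, adjusted p = 0.0145), opposite in sign to *Irf5*, and did not pass after rescaling to equal totals or quantile normalization. Beside *Irf3*, whose own difference is small, *Bcl2l12* at 9 bases differed by -0.12 (limma, adjusted p = 0.0604) and *Scaf1* at 97 bases by 0.07 (limma, adjusted p = 0.171). *Bcl2l12* passed without DADA replicate 1, with a log2 fold change of -0.15. Of the 3 long noncoding genes annotated within 5 kb of *Irf2*, none was analysed here.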

How the data were processed

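For 8 libraries of 150-base read pairs, the authors deposited a table of FPKM values. The submitters' processing notes name CASAVA 1.8.2, FastQC 0.11.9, HISAT2 2.0.5, StringTie 1.3.3, Picard 1.41 and SAMtools 0.1.18, and the builds GRCm39 and GRCh38, with no roles. The labels and the methods name different library kits. FPKM scales each gene to the library's mapped fragments, so a large rise of some genes lowers the values of others, and low values carry few fragments. Depth was estimated from the lowest values of 4292 single-transcript genes; only 35.8% to 45.2% of those values lay within 0.1 of a whole number of fragments (20% by chance), so no count test was run.

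Values were tested as log2(FPKM + 1) with limma 3.58.1 (R 4.3.3, eBayes with trend, Benjamini-Hochberg) for genes with at least 1 FPKM in 4 libraries; groups followed the sample titles. The fit was tried on simulated data over 10666 genes, of which 200 were changed. Of these, 29 of 50 genes changed by 0.25 (log2), 43 of 50 changed by 0.5 and 48 of 50 changed by 1 were recovered. Of 181 calls, 11 were false. In the data 66.2% of the genes were called, so these rates do not carry over to this comparison. Tables and figures were made with Python 3.11.15, numpy 2.4.6, pandas 2.3.3 and matplotlib 3.10.9. Promoter sequences are RefSeq's.

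The members and all gene lists were chosen with earlier results of these data known. Genes were named as follows: all members; in lists of up to 16 genes every tested gene, and in longer lists the 3 highest and 3 lowest among those that passed; the 3 genes nearest each member; neighbours within 5 kb. Some named genes are left out for length or are not reported here, and others (*Rigi*, *Tlr7*, *Tbk1*, *Sting1*, *Ifnb1*, *Ifna1*, *Ifna2*, *Ifna4*, *Ifnz* and single markers below 1 FPKM) were added after their values were seen. The alternatives tried were a pseudocount of 0.1, no filter, a mean of at least 5 FPKM, rescaling to equal totals, median-ratio scaling, quantile normalization, eBayes without trend, the replicate number as a block, and each library left out.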

Additional observations from a re-analysis of the deposited data

Results flagged for a closer look

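Within groups of 4 libraries, 1 library stood apart from the other 3 in 7 of the 126 combinations of a gene (or the members' sum) and a group examined, where chance gives about 1 in 20. The share of the range taken by the gap was 0.854 for *Irf3* with DMSO, where replicate 4 was at 27.0 FPKM and the others between 28.1 and 28.3 FPKM. It was 0.887 for *Tyk2* with DMSO (replicate 3), 0.83 for *Zbp1* with DMSO (replicate 2, 13.6 FPKM against 16.3 to 16.9 FPKM), 0.842 for *Tlr7* with DMSO (replicate 2) and 0.881 for *Irgm1* with DMSO (replicate 1, 14.1 FPKM against 15.95 to 16.2 FPKM). With DADA it was 0.861 for *Usp18* (replicate 2) and 0.934 for *Ikzf1* (replicate 1). In each of these genes the groups remained apart.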

How the results depend on the processing

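Each of the 8 members kept its direction and its side of the threshold under all 16 alternatives. The members were chosen by this contrast in these libraries, so this describes only how their values depend on the processing. The log2 fold change of *Irf7* ran from 3.75 (quantile normalization) to 4.56 (pseudocount of 0.1), that of *Irf1* from -0.20 to -0.15, that of *Irf2* from 0.20 to 0.26 and that of *Irf3* from -0.20 to -0.15. The number of genes called was 5741 to 7868 over all alternatives and 6700 to 6848 with 1 library left out. Which direction was more frequent depended on the scaling. The main fit gave 3296 higher and 3768 lower, rescaling to equal totals 3602 and 3379, and quantile normalization 3005 and 4116. Without the filter on low values, 6 of 8 interferon genes tested were called, all higher, against 1 with it. Of the 16167 genes tested in that way, 24.8% were called higher. *Ifnb1*, *Ifna2* and *Ifna4* were at 0 in every DMSO library and so could only be higher, and nothing is read from their direction. With a mean of at least 5 FPKM, fewer genes were tested and 15 ISGF3 targets were left. All 15 were called higher, beside 2458 of the 8190 genes tested. That mean runs over both groups. Some of the 15, such as *Oasl1* and *Ifit1*, reached it only through the DADA group and had to be higher. Of the IRF4 and IRF8 partners, 11 were tested with that mean and all 11 were called, 9 higher and 2 lower. After rescaling to equal totals or with quantile normalization, 11 of the 12 tested were called, 10 higher and 1 lower. Leaving out 1 library moved no list by more than 1.5 times; the list counts were then 5 to 6 for receptors and kinases, 16 to 17 for the sensors and kinases of IRF3 and IRF7 and 18 to 20 for the IRF1 targets.

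Among single genes, *Tnpo3* was no longer called after rescaling to equal totals (-0.08) or quantile normalization (-0.08). Calls were gained by *Pias1* with quantile normalization (-0.14), *Bcl2l12* with quantile normalization (-0.15) and without DADA replicate 1 (-0.15), and *Ifnar2* without DADA replicate 2 (-0.11). The cause was not tested. In the other 981 of 988 combinations of a gene and an alternative the call and the direction were kept.

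The replicate numbers of the labels did not pair the samples: deviations of same-numbered libraries from their group means correlated between -0.12 and 0.095, and 1 of 8 libraries correlated best with its own number. With the replicate block, 6995 genes were called, 8 members were called, and *Bcl2l12* (-0.12) gained a call. The depth is an estimate, and it limits what can be read from values near 1 FPKM, such as *Irf7* with DMSO and the type I interferon genes.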
